A study of Mus musculus with 12 samples.

Results

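Hmga2, Hmga1, Lin28b, Igf2bp1, Igf2bp2, Igf2bp3 and Arid3a are 7 of the 27998 genes in the count tables. They were chosen by name as the fetal Lin28b axis, a set of genes that blood-forming cells use before birth, and the rule uses no measured value, although earlier results of these data were known when the set was chosen. LIN28B is an RNA-binding protein that blocks the maturation of the let-7 microRNAs, and mature let-7 represses transcripts that carry matches to its seed. HMGA2 and HMGA1 are chromatin proteins that bend AT-rich DNA, IGF2BP1, IGF2BP2 and IGF2BP3 bind and stabilise mRNAs, and ARID3A is a DNA-binding protein of fetal lymphoid and hematopoietic cells. In fetal hematopoiesis Lin28b is high and let-7 is held low, and the order reverses in adult marrow.

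The cells came from C57BL/6 mouse bone marrow enriched for c-Kit with magnetic beads, which keeps the stem and progenitor cells of blood. Every mouse received pIpC, a double-stranded RNA that turns on the Mx1 promoter, in 5 injections at an age of 8 to 12 weeks by the sample labels, where the study's text gives a younger age. E2-KO mice were Mx1-Cre+ with both Ezh2 alleles floxed, G12D mice were Mx1-Cre+ with 1 inducible NRas G12D allele, and G12D/E2-KO mice carried all of these. WT mice lacked Mx1-Cre, so the recombinase cannot be told apart from the genotype in any comparison with WT. Ezh2 encodes the methyltransferase of Polycomb repressive complex 2 (PRC2), and Nras encodes a small GTPase. Marrow was taken at T1 (2 weeks), T2 (2 months) and T3 (4 months) after pIpC, with 1 library per genotype and time point and therefore 3 libraries per genotype. The question put to these genes was whether their RNA rose with loss of Ezh2, with activated NRas, or with both.

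After cells present in both tables were counted once, the 12 libraries held 2350 to 3767 cells and 12.6 to 23.6 M UMIs each. A UMI marks 1 captured RNA molecule, and CPM (counts per M, where M is 10 to the power of 6) is the share of a gene in all UMIs of a library, or in those of 1 cell class of that library. The G12D T1 and G12D/E2-KO T1 tables shared 2896 cells, which are 51.3% of the G12D T1 cells and 95.1% of the G12D/E2-KO T1 cells, and they were counted under G12D/E2-KO T1 alone. Of these cells 1494 were identical in every gene, and the lowest similarity of a matched pair was 0.9142. The labels do not settle which library they came from, and the choice was not tested. The shared cells held all 33 Lin28b UMIs of the deposited G12D T1 table and all but 96 of its 406 Hmga2 UMIs. Of its 2155 Ezh2 UMIs 1702 remained without them. With the shared cells counted in this way, the targeted gene followed the labels. Ezh2 ran from 103.0 to 132.8 CPM across WT libraries and from 81.7 to 102.8 CPM across G12D libraries. It ran from 27.7 to 34.6 CPM with E2-KO and from 20.7 to 25.3 CPM with both mutations. Kit itself was detected in 20.2% to 30.4% of the cells of a library and in 39.7% of HSC/MPP-like cells. Xist marked the T3 libraries of WT, E2-KO and G12D, and not that of G12D/E2-KO, as from female mice, so that sex and genotype cannot be told apart where G12D/E2-KO is compared at T3. The 3 time points stand in for replicates of a genotype, and p-values measure only the spread between these libraries.

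The let-7 family and its matches in these transcripts show what links the 7 genes in sequence. RefSeq (GRCm38.p6) lists 11 mature let-7 and miR-98 names, and 10 of them share the seed GAGGUAG while let-7j has GAGGUAU. The members below are shown 5′ to 3′ because they span the family, with bases 2 to 8, the seed, in capitals.
mmu-let-7a-5p: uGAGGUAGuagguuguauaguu
mmu-let-7g-5p: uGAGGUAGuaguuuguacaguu
mmu-miR-98-5p: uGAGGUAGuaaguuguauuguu
mmu-let-7j: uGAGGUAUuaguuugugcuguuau
The microRNAs themselves were not measured, since the libraries were made from the 3′ ends of polyadenylated RNA.

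The reverse complement of the shared seed, CTACCTC, was searched on the transcript strand of the longest annotated 3′ UTR of each gene, and CTACCTCA, which contains it, was counted as the 8-base match. Of 21007 protein-coding genes 9.0% held at least 1 match of 7 bases and 3.1% held the 8-base match. All 7 genes held at least 1 match. Hmga2, Lin28b and Igf2bp1 held 4 each, a number that 0.06% of all genes reach, Arid3a held 2, and Hmga1, Igf2bp2 and Igf2bp3 held 1. The 8-base form was present in every gene but Hmga1, with 3 copies in Igf2bp1 and 1 in each of the others. Several of these genes are known let-7 targets, so the matches describe the set, and they say nothing about binding in these cells.

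The sites of both genes whose RNA differed most are shown with their flanks, 5′ to 3′ on the minus strand of GRCm38 chromosome 10, with the match in capitals. Hmga2 lies at chr10:120361275-120476469, and its 4 sites, in 3′ UTR order, are at chr10:120364216-120364239, chr10:120362979-120363002, chr10:120362541-120362564 and chr10:120361683-120361706.
Hmga2 site 1: ttcaatttCTACCTCAgcatcagt
Hmga2 site 2: cctcaataCTACCTCtgaatgcta
Hmga2 site 3: gcaaggaaCTACCTCcacacttcc
Hmga2 site 4: acacactaCTACCTCttaagtccc
Lin28b lies at chr10:45376620-45486395, and its 4 sites are at chr10:45381014-45381037, chr10:45378640-45378663, chr10:45378468-45378491 and chr10:45377052-45377075.
Lin28b site 1: cgggaagtCTACCTCAtgcaagca
Lin28b site 2: gttagtaaCTACCTCtgagtttga
Lin28b site 3: gcacatggCTACCTCccagctacc
Lin28b site 4: ggcaccgaCTACCTCttcaatcac
In both genes the 8-base match is the first of the 4 and lies near the stop codon, at base 58 of the Hmga2 UTR and base 36 of the Lin28b UTR. The single 8-base matches of Igf2bp3 at chr6:49086779-49086802 (minus strand) and Arid3a at chr10:79953902-79953925 (plus strand) are given for comparison, since these genes differed less.
Igf2bp3 site: ttactcaaCTACCTCAggtattca
Arid3a site 1: gtttctttCTACCTCAggtctttt

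Of the 7 genes, Igf2bp1 had too few UMIs for a test over all cells, and Lin28b, at 0 in every library with Ezh2 intact, passed the filter on low counts through the deleted libraries alone and is left out of the counts that follow. In G12D/E2-KO against WT 2 of the other 5 rose, namely Hmga2 and Igf2bp3, and none fell, where 5.71% of 13143 genes were called and 3.72% were called higher. With Lin28b the number called was 3, and it ran from 0 to 4 when 1 library was left out, with 0 without WT replicate 3 and 0 without G12D/E2-KO replicate 2. Without Lin28b the calls were followed by gene. Hmga2 lost its call under 4 of 21 alternative settings and Igf2bp3 under 14 of 21, and Arid3a gained one under 1 of 21. The share of all genes called moved as well, from 0.696% to 10.5% when 1 library was left out. It was 0.696% without WT replicate 3 and 0.794% without G12D/E2-KO replicate 2. Over both NRas states Hmga2 rose with Ezh2 loss, 1 of 5, where 7.02% of genes were called and 5% were called higher. None of the 5 was called in E2-KO against WT (1.65% of genes called), in G12D against WT (0.107%), in the interaction or in G12D/E2-KO against E2-KO (0.0913% in each). Hmga2 was called in G12D/E2-KO against G12D (1.42%). Activated NRas over both Ezh2 states called none of the 5, where 4.93% of genes were called. Calls are from edgeR's quasi-likelihood test at an adjusted p under 0.05.

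Summed over all cells, Hmga2 was highest in the double mutant at every time point. Its counts were 112, 30 and 25 UMIs in WT at T1, T2 and T3, or 6.65, 1.27 and 1.28 CPM. In E2-KO they were 153, 140 and 78 UMIs, or 8.05, 6.49 and 6.17 CPM. The G12D libraries held 96, 31 and 37 UMIs, or 4.87, 1.76 and 2.20 CPM, and overlapped with WT throughout. In G12D/E2-KO there were 313, 337 and 182 UMIs, or 14.05, 18.15 and 11.79 CPM. All 3 G12D/E2-KO libraries lay above the other 9, an order that 2.13% of the genes tested also show. The deleted and intact libraries as a whole overlapped, because WT T1 lay above E2-KO T2 and T3.

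WT averaged 3.07 ± 3.11 CPM of Hmga2 and G12D 2.94 ± 1.68 CPM, against 6.91 ± 1.01 CPM for E2-KO and 14.7 ± 3.22 CPM for G12D/E2-KO (SD, n = 3 libraries each). Over both NRas states the difference with Ezh2 loss was 1.90 on the log2 scale (SE 0.31, edgeR adjusted p = 0.0074). G12D/E2-KO differed from WT by 2.52 (SE 0.44, edgeR adjusted p = 0.0166) and from G12D by 2.37 (SE 0.44, adjusted p = 0.0301). These 3 differences exceeded the spread between libraries, but calls were lost under alternative settings. That with Ezh2 loss was lost under 1 of 20, with the T1 and T2 libraries alone (edgeR adjusted p 0.124). None of these libraries was female by Xist, but they are also fewer, and the cause was not tested. The call against WT was lost under 4 of 21, among them T1 and T2 alone and only the WT and G12D/E2-KO libraries. It was also lost without WT replicate 3 (2.30, adjusted p 0.110) and without G12D/E2-KO replicate 2 (2.07, adjusted p 0.0549). The call against G12D was lost under 11 of 20. E2-KO alone differed from WT by 1.43 (SE 0.44) and missed the threshold (edgeR adjusted p = 0.155). Without WT replicate 1 that difference was 2.19 and was called (edgeR adjusted p = 0.0283), leaving out any other 1 library gave 1.08 to 1.78 with no call, and DESeq2 called it at 1.49 (adjusted p = 0.0135). G12D/E2-KO differed from E2-KO by 1.09 (SE 0.41, edgeR adjusted p = 0.192). G12D against WT gave 0.15 (SE 0.45, edgeR adjusted p = 0.916), and NRas over both Ezh2 states gave 0.62 (SE 0.31, adjusted p = 0.224). The interaction of the 2 mutations was 0.94 with an SE of 0.61 and an adjusted p of 1, which leaves the estimate wide around effects that add on the log2 scale. Such effects multiply in CPM, and effects that add in CPM were not tested. On CPM itself the 6 deleted libraries averaged 7.78 CPM above the 6 intact ones, and an exact permutation test within time points gave p = 0.00926, the smallest that the arrangements allow.

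**Figure D1:**
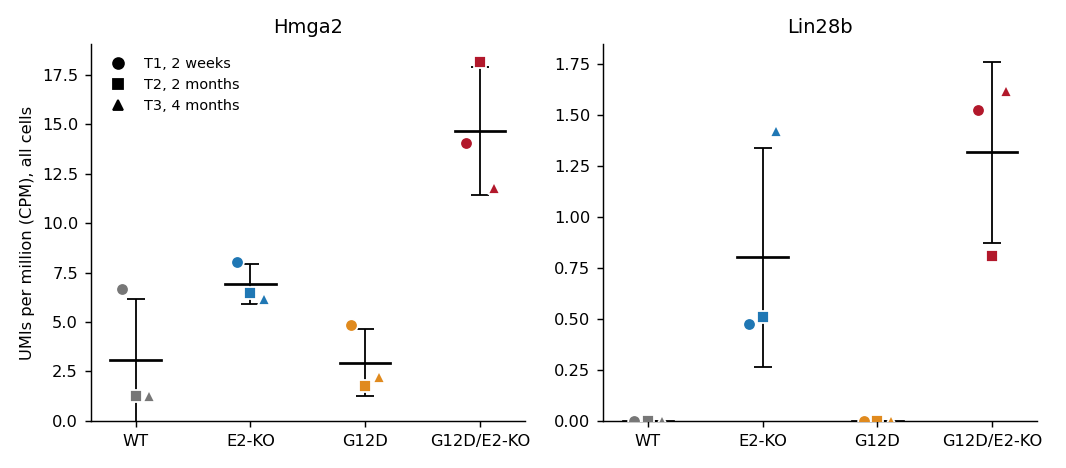
CPM of Hmga2 (left) and Lin28b (right) over all cells of each library, by genotype, with 1 point per time point, a line at the mean of the 3 libraries and error bars of 1 SD, which end at 0 on the axis. Hmga2 in G12D/E2-KO runs from 11.79 to 18.15 CPM, above every other library, and Lin28b is at 0 in all 6 WT and G12D libraries.

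The gap between genotypes was narrow at T1 and wide later, because Hmga2 was lower in WT and G12D after T1 than at T1 while the levels at T2 and T3 stayed nearer to those of T1 in both Ezh2-deleted genotypes. The ratio of G12D/E2-KO to WT was 2.11 at T1, 14.31 at T2 and 9.21 at T3. For E2-KO to WT it was 1.21, 5.11 and 4.82, while G12D/E2-KO to E2-KO was steadier at 1.74, 2.8 and 1.91. A term for Ezh2 loss at T2 and T3 beyond that at T1, added after the values were seen, came to 1.63 on the log2 scale (SE 0.38) and did not pass over all genes (edgeR adjusted p = 0.9998). That term called 0% of genes, with 321 of 13143 at an unadjusted p under 0.05. The common change from T1 to T3 over all genotypes was -1.07 (edgeR adjusted p = 0.367), in a contrast that also called 0% of genes, with 1708 at an unadjusted p under 0.05. Each time point is its own library, so time and library cannot be told apart within a genotype. By Xist only the T3 libraries of WT, E2-KO and G12D were female. Sex and time therefore cannot be told apart between T3 and the earlier time points in these genotypes. A sum over all cells also moves with the share of each cell class, so the values by class follow.

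Hmga2 RNA was concentrated in the most primitive cells. Cell classes were named from marker genes, and each is written X-like. HSC/MPP-like cells, the stem and multipotent progenitor class led by Hlf, Flt3 and Adgrl4, held 37.2% of the 1534 Hmga2 UMIs of the series but 4.0% of all UMIs, at 64.52 CPM pooled over libraries. Granulocyte-macrophage progenitor and early granulocyte (GMP/early GN)-like cells held 25.2% of its UMIs, close to their 24.0% of all UMIs, at 7.2 CPM. Basophil and mast (baso/mast)-like cells held 16.8% of its UMIs and 2.9% of all UMIs, at 39.29 CPM. Megakaryocyte-erythroid progenitor (MEP)-like cells stood at 10.52 CPM and megakaryocyte-like cells at 7.23 CPM. B lymphoid-like cells at 3.41 CPM, promonocyte (ProMo)-like cells at 2.32 CPM and early erythroid (EryP/early Ery)-like cells at 2.21 CPM followed. Late granulocyte (late GN)-like cells at 0.39 CPM and late erythroid-like cells at 0.32 CPM had almost none, and macrophage-like cells had none in 76 cells. Pooled levels weight the libraries by their cells, and within WT alone HSC/MPP-like (32.83 CPM), baso/mast-like (12.89) and MEP-like cells (5.43) were again the highest, as they were within G12D/E2-KO (106.49, 61.16 and 18.69).

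Within the HSC/MPP-like class the deleted genotypes stood above the intact ones of the same time point. WT held 77.53, 13.38 and 13.52 CPM of Hmga2 at T1, T2 and T3, from 50, 10 and 10 UMIs. In E2-KO the class held 103.46, 89.64 and 59.78 CPM, from 61, 56 and 22 UMIs. G12D had 38.24, 29.55 and 14.79 CPM, from 44, 12 and 12 UMIs. In G12D/E2-KO it had 101.63, 128.53 and 44.46 CPM, from 122, 156 and 15 UMIs. At T1, T2 and T3 both deleted libraries exceeded both intact ones, while across time points WT T1 lay above both deleted T3 libraries. How many genes of the class share this order within time points was not counted. Between the deleted genotypes, G12D/E2-KO lay below E2-KO at T1 and T3 and above it at T2. That difference was 0.16 on the log2 scale (SE 0.37, edgeR adjusted p = 0.9995), where 0.0379% of genes in the class were called. The excess of the double mutant over E2-KO in all cells was therefore not seen in this class. The Ezh2 difference in this class was 1.60 on the log2 scale (SE 0.30, edgeR adjusted p = 0.0435), where 0.631% of genes in the class were called, and G12D/E2-KO against WT gave 1.62 with an adjusted p of 0.134 (0.593% called). The first of these calls was lost when the time block was dropped (adjusted p = 0.238), when the tables were used as deposited (0.200) and in 8 of 12 fits that left out 1 library. The share of HSC/MPP-like cells ran from 3.44% to 8.26% of a library, lowest in G12D/E2-KO T3 and highest in G12D/E2-KO T2, and its part in the all-cell values was not tested.

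Among the classes given here, baso/mast-like cells had the smallest edgeR adjusted p for Hmga2 with Ezh2 loss. WT stood at 22.65, 12.15 and 5.19 CPM, and G12D at 34.25, 17.34 and 5.83 CPM. E2-KO stood at 64.51, 32.07 and 50.78 CPM, and G12D/E2-KO at 82.9, 65.34 and 44.54 CPM. The values of the intact libraries rest on few cells, with 54, 82 and 58 in WT and 91, 62 and 86 in G12D. Over all 12 libraries the class held 258 Hmga2 UMIs. At each time point both deleted libraries lay above both intact ones, while across time points E2-KO T2 lay below G12D T1. The share of genes of the class with this order within time points was not counted. The Ezh2 difference was 1.80 on the log2 scale (SE 0.26, edgeR adjusted p = 3.13e-06), where 1.41% of genes in the class were called. G12D/E2-KO exceeded WT by 2.36 (SE 0.35, edgeR adjusted p = 1.88e-05), where 0.713% were called, and E2-KO alone exceeded WT by 1.88 (adjusted p = 0.0126). Fits that left out 1 library were run over all cells and in HSC/MPP-like cells, and not in this class. Baso/mast-like cells made up 2.28% to 4.35% of 11 libraries and 7.83% of G12D/E2-KO T3.

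In GMP/early GN-like cells Hmga2 was 7.14, 0.4 and 1.37 CPM in WT and 5.3, 1.85 and 2.71 CPM in G12D. It was 6.58, 6.41 and 9.89 CPM in E2-KO and 17.34, 14.63 and 7.96 CPM in G12D/E2-KO. The Ezh2 difference was 1.79 on the log2 scale (edgeR adjusted p = 0.0436), where 9.02% of genes in the class were called, and G12D/E2-KO against WT gave 2.48 with an adjusted p of 0.0962 (2.15% called). In EryP/early Ery-like cells Hmga2 was 2.35, 1.29 and 0.4 CPM in WT, 1.99, 1.2 and 1.26 CPM in E2-KO and 0.35, 0.56 and 0.98 CPM in G12D. G12D/E2-KO held 2.86, 3.93 and 16.82 CPM, so that 47 of its 66 UMIs came from T3. E2-KO and WT overlapped, at a difference of 0.25 (edgeR adjusted p = 0.912). For that class G12D/E2-KO against WT was 2.51 (edgeR adjusted p = 0.0446), where 3.47% of genes were called, and the Ezh2 difference was 1.87 (adjusted p = 0.0617, with 6.7% called). MEP-like cells held few Hmga2 UMIs, with 6 in 214 WT cells, 14 in 258 E2-KO cells, 0 in 172 G12D cells and 27 in 362 G12D/E2-KO cells. In CPM the deleted libraries of that class ran from 9.16 to 25.36 and overlapped with WT T1 at 12.83, and Hmga2 did not pass the filter on low counts there.

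**Figure D2:**
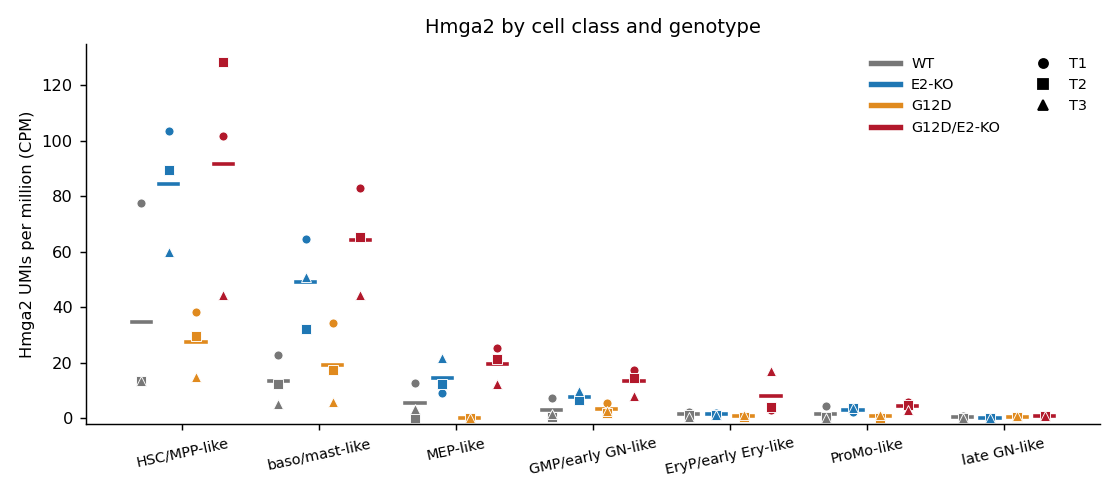
Hmga2 CPM in marker-named cell classes by genotype, with 1 point per time point and a bar at the mean of the 3 libraries. HSC/MPP-like cells reach 128.53 CPM in G12D/E2-KO, and baso/mast-like cells separate the deleted from the intact genotypes at each time point. The share of genes of that class with this order was not counted.

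The share of HSC/MPP-like cells with at least 1 Hmga2 UMI was also higher with Ezh2 deleted. Each cell was thinned to 2000 UMIs so that depth did not set the share, and shallower cells were left out. The share was 14.63%, 2.8% and 2.86% in WT at T1, T2 and T3 and 7.22%, 5.98% and 3.85% in G12D. It was 14.56%, 14.49% and 10.69% in E2-KO and 15.89%, 20.03% and 7.28% in G12D/E2-KO. As a background, at most 0.21% of late GN-like cells of any library held a UMI. The mean over the 6 deleted libraries was 13.82 ± 4.39% and over the 6 intact ones 6.22 ± 4.48% (SD), a difference of 7.6 percentage points with an exact two-sided permutation p of 0.01852. Without thinning the means were 25.65% and 13.39%. Without WT replicate 3 the difference was 6.92 points and the exact permutation p 0.0556. Flt3, a receptor of early progenitors that the study reported as raised by NRas G12D, is itself one of the markers of the class. After thinning it was detected in 33.64% of these cells with Ezh2 deleted and 24.32% with Ezh2 intact (exact permutation p = 0.03704). Its counts in the class gave no call in edgeR, at 0.43 with Ezh2 loss (adjusted p = 0.380) and 0.34 with NRas (0.891). Over all cells the differences were 0.33 with Ezh2 loss (edgeR adjusted p = 0.507) and 0.82 with NRas (0.115). Cells with both genes made up 4.75% and 1.63% (exact permutation p = 0.00926). This joint share moves with the share of each gene, so its p is not separate from theirs. Whether the 2 genes were found together more often than their single shares give was not tested.

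Lin28b was found only in libraries with Ezh2 deleted, once the cells shared by 2 tables were counted under G12D/E2-KO T1. No UMI was counted in the 7583 WT and 7715 G12D cells, in 114.1 M UMIs in all. In E2-KO 9, 11 and 18 UMIs were counted at T1, T2 and T3, or 0.474, 0.51 and 1.424 CPM. The double mutant held 34, 15 and 25 UMIs, or 1.526, 0.808 and 1.62 CPM. The 6 deleted libraries therefore all lay above the 6 intact ones, as 2.78% of the genes tested did. Pooled over libraries, the observed level of Lin28b in E2-KO was 14.3 times a floor of 3 counts over the WT group. The level in G12D/E2-KO was 26.3 times the WT floor and 23.7 times the G12D floor. These ratios leave out the counting error of the deleted groups, so they are not lower bounds. In edgeR the adjusted p was 0.0324 for E2-KO and 0.013 for G12D/E2-KO against WT, values that carry no independent support since Lin28b passed the filter through the deleted libraries alone. The call in E2-KO was lost under 9 of 20 alternative settings, among them leaving out any 1 WT or E2-KO library, and that in G12D/E2-KO under 3 of 21, namely without WT replicate 3 (adjusted p 0.0621), without G12D/E2-KO replicate 2 (0.0549) and with the tables as deposited (0.0570). Against G12D the adjusted p was 0.0189 and the call was lost under 6 of 20 settings, among them the tables as deposited, where the 33 UMIs of the shared cells also count for G12D T1 and the difference was 2.08 on the log2 scale (edgeR adjusted p = 0.528). The difference between G12D/E2-KO and E2-KO, 0.77 on the log2 scale (SE 0.49, edgeR adjusted p = 0.44), was within the spread.

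Lin28b was sparse even where present, and its UMIs were spread over classes otherwise than those of Hmga2, with GMP/early GN-like cells holding a large share of both. It was detected in 38 of 7975 E2-KO cells and 72 of 9428 G12D/E2-KO cells, with at most 2 UMIs in a cell. Of its 112 UMIs, 43 fell in EryP/early Ery-like and 41 in GMP/early GN-like cells, which held 38.4% and 36.6% of them against 24.7% and 24.0% of all UMIs. ProMo-like cells held 10, B lymphoid-like cells 6, late GN-like cells 4, and HSC/MPP-like, MEP-like and baso/mast-like cells 2 each. In EryP/early Ery-like cells Lin28b stood at 0.91, 0.53 and 2.02 CPM in E2-KO and 2.86, 1.64 and 5.01 CPM in G12D/E2-KO, against 0 in each WT and G12D library. Of the 110 cells with Lin28b, 10 also held Hmga2, or 9.09% against 5.09% of all cells with Ezh2 deleted. The cells with Lin28b were deeper, at a median of 10082.5 UMIs against 5158.0, so these shares are not at matched depth.

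The IGF2BP genes behaved unlike each other. Igf2bp1 was near the limit of detection, with 22 UMIs in all. At T1, T2 and T3 WT held 2, 4 and 5 of them, E2-KO 1, 2 and 0, G12D 0, 2 and 1, and G12D/E2-KO 3, 1 and 1. At this depth no difference could be shown. Igf2bp2 was present at a few CPM in every library and showed no call. WT held 4.81, 6.34 and 5.23 CPM, E2-KO 6.11, 5.24 and 3.72 CPM, G12D 6.03, 6.26 and 6.89 CPM, and G12D/E2-KO 4.76, 7.43 and 6.61 CPM. The groups overlapped, and G12D/E2-KO against WT was 0.12 on the log2 scale (SE 0.20, edgeR adjusted p = 0.728). Its highest class was megakaryocyte-like, at 15.47 CPM pooled over libraries.

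Igf2bp3, the most abundant of the 3 in UMIs, rose in the double mutant. WT held 22.58, 12.65 and 12.09 CPM at T1, T2 and T3, E2-KO 18.37, 19.38 and 12.27 CPM, and G12D 16.12, 15.71 and 13.66 CPM. G12D/E2-KO held 29.80, 25.96 and 19.44 CPM. The double mutant was highest at each time point, although WT T1 lay above its T3 library. How many genes share this order within time points was not counted. The difference from WT was 0.65 on the log2 scale (SE 0.17, edgeR adjusted p = 0.0469), and this call was lost under 14 of 21 alternative settings. Ezh2 loss over both NRas states gave 0.35 (adjusted p = 0.094). By class Igf2bp3 was broad: 33.96 CPM in HSC/MPP-like, 28.61 in B lymphoid-like, 25.37 in GMP/early GN-like and 22.79 in ProMo-like cells, against 2.63 in late erythroid-like cells.

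The Ezh2 difference of Igf2bp3 was called in 3 of the 8 classes in which the gene was tested. In promonocyte-like cells WT stood at 29.63, 14.99 and 12.59 CPM and G12D at 12.11, 19.72 and 12.66 CPM. E2-KO stood at 32.59, 27.22 and 23.85 CPM and G12D/E2-KO at 38.96, 34.74 and 27.78 CPM. At every time point both deleted libraries exceeded both intact ones, an order that was not counted over the genes of the class. The Ezh2 difference was 0.89 on the log2 scale (edgeR adjusted p = 0.0014), where 6.27% of genes in the class were called. G12D/E2-KO against WT was 0.86 (adjusted p = 0.0439), where 3.15% were called. Igf2bp3 was also called with Ezh2 loss in GMP/early GN-like cells, at 0.71 (edgeR adjusted p = 0.0099), where 9.02% of genes in the class were called, and in late GN-like cells, at 0.54 (adjusted p = 0.0463), where 13% of genes in the class were called. In the other 5 classes the estimate was below 0 without a call: -1.06 in megakaryocyte-like cells (edgeR adjusted p = 0.378), -0.60 in baso/mast-like cells (0.339), -0.40 in MEP-like, -0.27 in EryP/early Ery-like and -0.15 in HSC/MPP-like cells. The lowest of the E2-KO values was in baso/mast-like cells, where WT held 36.81, 27.35 and 38.93 CPM and E2-KO 15.64, 10.69 and 4.23 CPM, a difference of -1.56 that missed the threshold (edgeR adjusted p = 0.141). The difference between classes was not tested.

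Arid3a was higher in the double mutant in every library without passing the test. WT held 18.42, 18.78 and 16.19 CPM, E2-KO 18.16, 14.88 and 19.07 CPM, and G12D 18.20, 16.11 and 22.44 CPM. G12D/E2-KO held 26.26, 28.06 and 24.04 CPM, all above the other 9 libraries, as in 2.13% of the genes tested. Against WT the difference was 0.51 on the log2 scale (SE 0.18, edgeR adjusted p = 0.0994). The gene was most abundant in late GN-like cells (42.05 CPM pooled), GMP/early GN-like cells (27.77) and ProMo-like cells (26.76), and low in HSC/MPP-like cells (6.34). Hmga2 had the reverse order between HSC/MPP-like and late GN-like cells. Late erythroid-like cells were low in both genes (1.99 CPM for Arid3a and 0.32 CPM for Hmga2). Late GN-like cells of WT held 44.91, 36.69 and 36.81 CPM and those of G12D 31.45, 31.52 and 41.53 CPM. Those of E2-KO held 56.88, 61.77 and 51.0 CPM and those of G12D/E2-KO 42.3, 60.46 and 49.53 CPM. The Ezh2 difference there was 0.39 (edgeR adjusted p = 0.0375), where 13% of genes in the class were called. It was not called in GMP/early GN-like cells (0.40, edgeR adjusted p = 0.0648) or in EryP/early Ery-like cells (-0.02, adjusted p = 0.98).

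**Figure D3:**
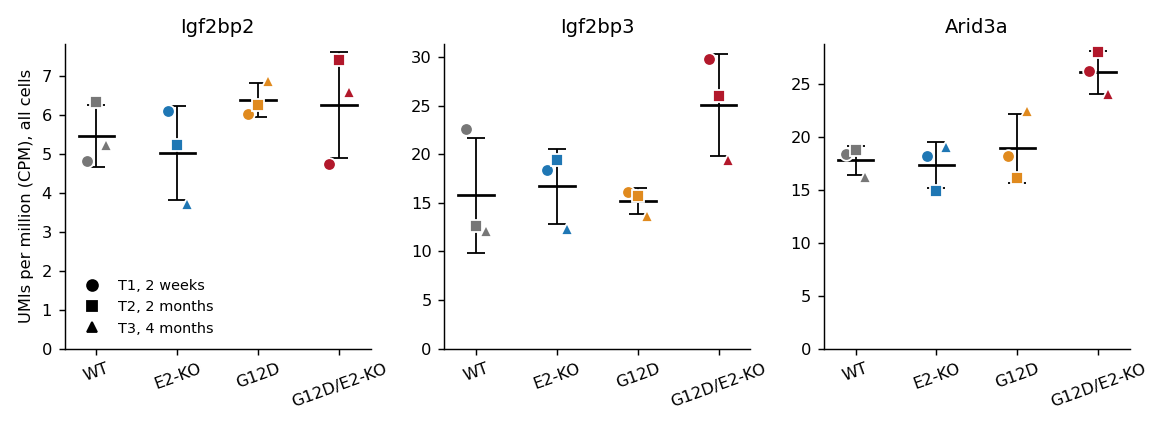
CPM of Igf2bp2, Igf2bp3 and Arid3a over all cells of each library, by genotype, with 1 point per time point, a line at the mean of the 3 libraries and error bars of 1 SD. Igf2bp2 overlaps between genotypes, while Arid3a in G12D/E2-KO (24.04 to 28.06 CPM) lies above the other 9 libraries.

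Hmga1, at chr17:27556497-27563674 (plus strand), belongs to a family of genes alike in sequence, and how reads were divided within it is not resolved here, so its counts are uncertain. WT held 278, 275 and 301 UMIs at T1, T2 and T3, or 16.5, 11.6 and 15.4 CPM. G12D held 1002, 140 and 462 UMIs, or 50.8, 7.97 and 27.4 CPM, and E2-KO held 135, 137 and 11 UMIs, or 7.11, 6.35 and 0.87 CPM. In G12D/E2-KO 21, 123 and 12 UMIs were assigned, or 0.943, 6.62 and 0.777 CPM. All 6 deleted libraries lay below all 6 intact ones, as 0.449% of the genes tested did, and values within G12D, E2-KO and G12D/E2-KO differed several-fold between time points. Over all cells G12D/E2-KO against WT was -2.54 on the log2 scale with an SE of 1.06 and missed the threshold (edgeR adjusted p = 0.185), as did Ezh2 loss over both NRas states (-2.64, SE 0.75, adjusted p = 0.0847). The Ezh2 difference was negative under all 20 alternative settings, from -3.44 to -1.95, and was called under 3, namely with DESeq2 (adjusted p = 0.0014), without G12D replicate 2 (0.049) and without G12D/E2-KO replicate 2 (0.0432). By class edgeR called fewer assigned UMIs with Ezh2 loss in EryP/early Ery-like cells (-2.64, adjusted p = 0.0326, where 6.7% of genes were called) and in G12D/E2-KO against G12D in HSC/MPP-like cells (-3.51, adjusted p = 0.0328, where 0.177% were called). These are differences in the UMIs assigned to Hmga1, and with the division of reads unresolved they are not read as a change in its RNA.

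**Figure D4:**
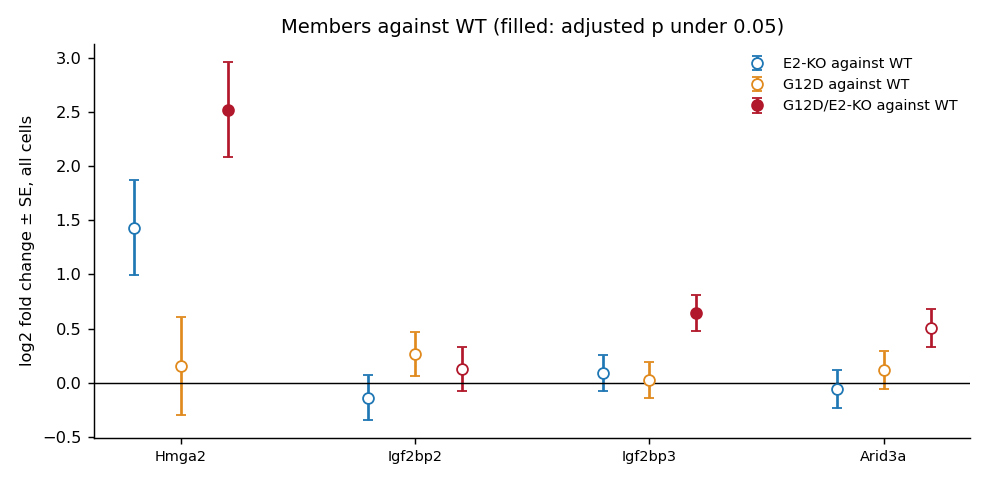
Log2 fold change against WT over all cells (edgeR, error bars are the SE) for Hmga2, Igf2bp2, Igf2bp3 and Arid3a, in E2-KO, G12D and G12D/E2-KO, with filled points at an adjusted p under 0.05. Hmga2 at 2.52 and Igf2bp3 at 0.65 in G12D/E2-KO are filled, and the other points are open. Hmga1, whose counts are uncertain, and Lin28b, at 0 in WT, are not drawn.

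Among genes that process or block let-7, 18 of 19 were tested and 0 were called by edgeR in G12D/E2-KO against WT, where 1 of the list was at an unadjusted p under 0.05. Of all 13143 genes tested 5.71% were called in this contrast and 3457 were at an unadjusted p under 0.05. The median difference of the list was 0.09 on the log2 scale, against 0.014 over all genes tested, and its single genes ran from -0.4 to 0.37. With Ezh2 loss over both NRas states 0 were called by edgeR and 7 were at an unadjusted p under 0.05. Of all 13143 genes tested 7.02% were called there and 3400 were at an unadjusted p under 0.05. With NRas G12D over both Ezh2 states 1, Lin28a, was called higher and 4 were at an unadjusted p under 0.05. Of all genes tested 4.93% were called there and 3498 were at an unadjusted p under 0.05. The list holds Lin28a, the paralog of Lin28b, which unlike Lin28b was present in all 12 libraries. It stood at 5.288, 6.259 and 4.866 CPM in WT and 4.264, 3.198 and 3.719 CPM in E2-KO. The G12D libraries held 7.149, 7.342 and 6.709 CPM and those of G12D/E2-KO 8.752, 6.895 and 5.702 CPM. The NRas difference was 0.65 on the log2 scale (edgeR adjusted p = 0.0401, where 4.93% of genes were called), and the Ezh2 difference was -0.33 (adjusted p = 0.193). The share of genes called with NRas ran from 0.0152% to 12.2% when 1 library was left out, and the Lin28a call was not followed in those fits. Lin28a is named after its values were seen.

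Of 25 genes listed as let-7 targets outside the 7, 24 were tested, 3 rose in G12D/E2-KO against WT (12.5%, beside 3.72% of all genes tested) and 0 fell, with a median of 0.27 and a range from -0.84 to 1.49. The 7-base match was present in 64.0% of the listed genes. Ccnd1, the D-type cyclin of G1, stood at 6.714, 5.202 and 7.529 CPM in WT and 13.959, 16.967 and 27.212 CPM in G12D/E2-KO, a difference of 1.49 (edgeR adjusted p = 0.00447). It was also high in G12D, at 14.653, 8.366 and 15.733 CPM. Igf1r, the IGF1 receptor, stood at 45.51, 41.656 and 47.635 CPM in WT and 59.382, 91.676 and 108.654 CPM in G12D/E2-KO, a difference of 0.85 (edgeR adjusted p = 0.00916). For Fas, the death receptor, the values were 2.971, 3.087 and 2.254 CPM in WT and 6.777, 5.332 and 4.924 CPM in G12D/E2-KO, a difference of 0.98 (adjusted p = 0.036). Ezh2 loss over both NRas states called 4 of the 24 higher (16.7%, beside 5% of all genes tested), and NRas G12D over both Ezh2 states called 1 higher, Ccnd1, and 1 lower, Hras, where 4.93% of genes were called. The Hras call was lost without WT replicate 1, G12D replicate 1 or G12D replicate 3, since no gene was called lower with NRas in those fits. The Ccnd1 call was not followed there.

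Other fetal genes were mostly out of reach. Of 10 fetal and imprinted growth genes 9 were detected and 3 passed the filter on low counts. Plagl1, an imprinted zinc-finger gene, stood at 0, 0 and 0.051 CPM in the WT libraries and 0.101, 0.171 and 0.119 CPM in those of G12D. E2-KO held 0.632, 0.232 and 0.633 CPM and G12D/E2-KO 0.808, 0.7 and 1.101 CPM. Its pooled level in G12D/E2-KO was 51.2 times that in WT, with an exact 95% counting interval of 8.76 to 2062.8, since WT held 1 UMI. The gene passed the filter through the libraries in which it is high, so its edgeR call carries no independent support. Like Lin28b and 2.78% of the genes tested, it was higher in every deleted library than in any intact one. Cdkn1c, a cell cycle inhibitor, differed by 0.49 in G12D/E2-KO against WT (edgeR adjusted p = 0.467) and Grb10, a growth adaptor, by -0.04 (adjusted p = 0.968). With Ezh2 loss over both NRas states the differences were 0.73 (edgeR adjusted p = 0.134) and 0.99 (adjusted p = 0.108), and in E2-KO against WT 1.12 (adjusted p = 0.196) and 1.17 (adjusted p = 0.261), none of them called. The embryonic globins and their repressor Bcl11a, 4 of 4 tested, gave 0 calls by edgeR in G12D/E2-KO against WT, with 1 at an unadjusted p under 0.05 and a median of -0.43. Of all 13143 genes tested 5.71% were called there and 3457 were at an unadjusted p under 0.05. The median of these 4 genes was 1.17 in E2-KO against WT and 0.67 with Ezh2 loss, again with 0 calls by edgeR and 0 genes at an unadjusted p under 0.05 in each. Of all genes tested 1.65% and 7.02% were called in these contrasts, and 2125 and 3400 were at an unadjusted p under 0.05. NRas G12D over both Ezh2 states gave a median of -1.10 with 3 genes at an unadjusted p under 0.05, and Bcl11a alone was called, at -0.52 (edgeR adjusted p = 0.0397). Of all genes tested 4.93% were called there and 3498 were at an unadjusted p under 0.05. The Bcl11a call was lost without WT replicate 1, G12D replicate 1 or G12D replicate 3, since no gene was called lower in those fits.

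Of 10 PRC2 genes, all tested, Ezh2 fell by 2.36 on the log2 scale in G12D/E2-KO against WT (edgeR adjusted p = 0.000114) and Jarid2, a PRC2 cofactor, rose by 0.59 (adjusted p = 0.0302). Jarid2 stood at 24.656, 21.526 and 25.252 CPM in WT and 28.636, 38.351 and 46.455 CPM in G12D/E2-KO. The other 8 were not called, the median over the list was 0.08, and 5.71% of all genes tested were called. Ezh2 is the gene that was deleted. With Ezh2 loss over both NRas states Jarid2 (0.43, edgeR adjusted p = 0.0184) and Phf19, another PRC2 cofactor (0.69, adjusted p = 0.0277), were called higher, 2 of 10, beside 5% of all genes tested.

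Across the 12 libraries the genes most like Hmga2 in log2 CPM, among 5596 genes of at least average abundance 4, were Dpysl2 (Pearson r = 0.867), Gm1673 (0.833), Cbx3 (0.829), Zmynd11 (0.798) and Mef2c (0.792). Among the members Lin28b (0.792) and Igf2bp3 (0.785) were most alike to Hmga2, followed by Arid3a (0.515), Igf2bp2 (-0.194) and Hmga1 (-0.529), whose counts are uncertain. Dpysl2, a cytoskeletal protein gene, averaged 11.6 and 13.4 CPM in WT and G12D against 21.1 and 22.9 CPM in E2-KO and G12D/E2-KO. Gm1673 averaged 9.9 and 12.3 against 37.5 and 45.6 CPM in the same order. Both stood higher with Ezh2 deleted in either NRas state. These correlations describe 12 libraries that share genotype and time, and they carry no test.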

How the data were processed

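UMI counts of 27998 genes per cell in 12 libraries were used as deposited; the authors aligned reads to mm10 with Cell Ranger and removed cells above 10% mitochondrial UMIs and doublets called by Scrublet. No further cell filter was applied. Cells present in 2 tables (cosine similarity above 0.9) were counted once. WT cells were clustered (scanpy 1.11.5, 50 components, Leiden resolution 2, Hmga2 and Xist left out), 26 of 27 clusters were named from marker lists, and mutant cells took the class of the nearest WT cell. Of 12 classes, 9 were tested, those in which no library had fewer than 20 cells. Counts were summed per library, or per library and class, and fitted with edgeR 4.0.16 (R 4.3.3; TMM, filterByExpr, robust glmQLFit) with factors for genotype and for time point, on all genes, and with Benjamini-Hochberg adjustment at 0.05. The 6 residual degrees of freedom and a biological coefficient of variation of 0.19 set the precision. On data simulated for 12853 genes, 74.2% of genes changed by 1 on the log2 scale in G12D/E2-KO against WT and 99% of those changed by 2 were recovered. The simulation gave every gene the same biological variation and no time effect. These rates therefore do not carry over to noisier genes such as Hmga2 (SE 0.44 in that contrast) and Hmga1 (SE 1.06). Intervals and floors cover counting error only. Alternatives included DESeq2 1.42.0, size factors, filters, the time block and leaving out each library. The members, gene lists and tests were chosen with earlier results of these data known. All 7 members are named, with at most 5 called genes per list by smallest p and the 5 genes most like Hmga2; Lin28a, Bcl11a, Phf19, Hras, Cdkn1c and Grb10 were named after their values were seen. Gene models were GENCODE M21 on GRCm38 and microRNAs RefSeq. One item is not reported here.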

Additional observations from a re-analysis of the deposited data

How the results depend on the processing

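Values are log2 differences with edgeR adjusted p unless stated. For Hmga2 over all cells, Ezh2 loss kept its direction and call under every setting run except with T1 and T2 alone (1.74, adjusted p 0.124), and leaving out 1 library gave 1.69 to 2.24. G12D/E2-KO against WT was 2.35 (0.094) with T1 and T2 alone and 2.54 (0.0769) with only the WT and G12D/E2-KO libraries, ranged from 2.07 to 3.26 when 1 library was left out, and lost its call without WT replicate 3 (2.30, 0.110) and without G12D/E2-KO replicate 2 (2.07, 0.0549). The number of members called, Lin28b included, was 1 with T1 and T2 alone, 1 with the tables as deposited, 1 with only the WT and G12D/E2-KO libraries, and 0 to 4 when 1 library was left out, with 0 without WT replicate 3 and without G12D/E2-KO replicate 2. Lin28b passed the filter through the deleted libraries alone, so these counts carry its limit. Of the others, Hmga2 lost its call under 4 of 21 settings and Igf2bp3 under 14 of 21. Of all genes 4.78% were called with T1 and T2 alone, 3.39% as deposited and 3.1% with only the WT and G12D/E2-KO libraries. Leaving out 1 library gave 0.696% to 10.5%, with 0.696% without WT replicate 3 and 0.794% without G12D/E2-KO replicate 2. In HSC/MPP-like cells the Ezh2 difference of Hmga2 was 1.61 (0.238) with no time block and 1.35 (0.200) with the tables as deposited, and 1.29 to 2.09 when 1 library was left out. The difference in Hmga2-positive share ran from 6.35 to 9.28 points when 1 library was left out. Without the time block, that is with no replicate block, Hmga2 gave 1.71 (0.033) for Ezh2 loss and 2.28 (0.0471) for G12D/E2-KO against WT. Libraries of the same time point deviated together with r from -0.117 to 0.333 over 18 pairs. They came from different genotypes and therefore from different animals, so r does not bear on pairs of one animal. The cause of each change was not tested. Reversals were confined to differences that were not called. For Hmga2 G12D against WT was -0.06 with T1 and T2 alone and -0.18 to 0.97 when 1 library was left out. For Hmga1 NRas was -0.14 as deposited and -0.95 to 0.43 when 1 library was left out. For Igf2bp2 the interaction was 0.01 without the filter, 0.01 without the block, 0.00 without haemoglobin and late GN genes, 0.05 as deposited, 0.10 without both libraries that share cells, and -0.15 to 0.22 when 1 library was left out, where E2-KO against WT was -0.37 to 0.00. For Igf2bp3 G12D against WT was 0.00 without the block and -0.04 with T1 and T2 alone; leaving out 1 library gave -0.14 to 0.18, and -0.08 to 0.24 for E2-KO. For Arid3a G12D against WT was -0.06 with T1 and T2 alone; leaving out 1 library gave -0.04 to 0.24, and -0.19 to 0.07 for E2-KO. Of 865 further comparisons of 43 other results with their alternatives 780 kept direction and side of the threshold, 44 lost a call, 10 gained one and 31 changed sign. The omission of both libraries that share cells and the late Ezh2 term were added after seeing the data.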

Other observations

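The T3 libraries of 3 genotypes came from female mice by Xist and that of G12D/E2-KO did not, so sex and genotype cannot be told apart where G12D/E2-KO is compared at T3. In those 3 genotypes sex and time also cannot be told apart between T3 and the earlier time points. Low UMI numbers limit Lin28b and Igf2bp1.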
